A study of Mus musculus with 51 samples.

Results

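Collagens and the stromal genes that bind, cross-link or respond to them were followed through the ventral prostate of mice with and without an AKT1 transgene. The members are all probe sets whose single gene symbol is a collagen chain other than Col17a1, or one of 14 stromal genes (Dcn, Lum, Bgn, Fn1, Fbn1, Sparc, Postn, Eln, Fbln1, Fbln2, Lox, Loxl1, Pdgfra and Pdgfrb). They come to 80 probe sets of 48 genes, out of 12393 genes with a symbol of their own on the arrays, and no probe set has Fbn1 as its only symbol, so Fbn1 was not analysed here. The rule reads no measured value, but it was written with earlier results of these data known.

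The samples are 51 Affymetrix arrays of ventral prostate RNA, from FVB mice aged 8 to 10 weeks on a standard diet, in a study meant to tell markers of RAD001 action from markers of response. RAD001 (everolimus) inhibits mTOR, a kinase downstream of AKT1. AKT1 transgenic mice (FVB-AKT1) given RAD001 are represented by 5 arrays after 12 h, 4 after 48 h, 3 after 6 d, 4 after 9 d and 6 after 15 d. AKT1 transgenic mice given placebo are represented by 4 arrays after 12 h, 5 after 48 h, 1 each after 6 d and 9 d, and 7 after 15 d. Wild type FVB mice given placebo contributed 4 arrays of 12 h, 4 of 48 h and 3 of 15 d. No wild type mouse received RAD001 in these samples. The sources used here give neither the dose, nor the promoter that drives the transgene, nor whether tissue of several animals was pooled. The labels call the arrays of a group biological replicates, and the p-values below measure the spread between those arrays.

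The prostate gland consists of secretory epithelium on a basement membrane, set in a stroma of smooth muscle and fibroblasts. Fibroblasts secrete fibril-forming collagens (types I, III and V) and the small proteoglycans that space the fibrils, while the basement membrane is a network of type IV collagen and laminin that also holds type XVIII collagen. Procollagen chains are hydroxylated and folded in the endoplasmic reticulum, trimmed outside the cell and cross-linked by lysyl oxidases, and TGF-beta signalling is a known inducer of many of these genes.

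The start sites of 4 of the collagen genes show how differently members of the group are arranged, and are given because all 4 fell in transgenic glands in the comparison that follows. The RefSeq table (build GRCm38.p6) holds windows of 300 bases, from 250 before to 50 after the annotated start, for 32 of the 48 genes. Col4a1 (chr8:11312777-11313076, minus strand) and Col4a2 (chr8:11312555-11312854, plus strand), which encode the main basement membrane chains, lie head to head with starts 21 bases apart. Capitals mark the 78 bases (chr8:11312777-11312854) that both windows share.
Col4a1: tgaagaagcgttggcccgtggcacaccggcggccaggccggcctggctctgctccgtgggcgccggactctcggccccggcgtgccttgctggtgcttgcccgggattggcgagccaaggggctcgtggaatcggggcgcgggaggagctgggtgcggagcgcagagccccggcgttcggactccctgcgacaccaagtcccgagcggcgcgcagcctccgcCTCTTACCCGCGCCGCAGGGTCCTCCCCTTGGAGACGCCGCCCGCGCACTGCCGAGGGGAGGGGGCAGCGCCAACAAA
Col4a2: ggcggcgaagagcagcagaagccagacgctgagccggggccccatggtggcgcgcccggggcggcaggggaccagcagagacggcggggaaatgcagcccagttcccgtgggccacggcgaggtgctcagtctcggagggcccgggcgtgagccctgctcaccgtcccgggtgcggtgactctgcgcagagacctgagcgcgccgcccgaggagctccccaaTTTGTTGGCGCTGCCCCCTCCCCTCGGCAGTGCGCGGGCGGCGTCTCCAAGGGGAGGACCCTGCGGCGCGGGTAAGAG
Col1a2, a chain of type I collagen, starts in a window at chr6:4505368-4505667 (plus strand), and Col3a1, the chain of type III collagen, in one at chr1:45311288-45311587 (plus strand). Capitals here mark matches, read on both strands, to the box known as CCAAT, to the Sp1-type box GGGCGG and to the TATA-type box TATAAA, none of which overlap.
Col1a2: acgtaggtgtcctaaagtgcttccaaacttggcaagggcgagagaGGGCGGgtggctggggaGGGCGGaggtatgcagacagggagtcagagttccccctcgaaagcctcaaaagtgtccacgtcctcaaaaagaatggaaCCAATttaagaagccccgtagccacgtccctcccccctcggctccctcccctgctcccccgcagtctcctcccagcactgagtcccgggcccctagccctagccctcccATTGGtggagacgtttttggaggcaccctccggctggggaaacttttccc
Col3a1: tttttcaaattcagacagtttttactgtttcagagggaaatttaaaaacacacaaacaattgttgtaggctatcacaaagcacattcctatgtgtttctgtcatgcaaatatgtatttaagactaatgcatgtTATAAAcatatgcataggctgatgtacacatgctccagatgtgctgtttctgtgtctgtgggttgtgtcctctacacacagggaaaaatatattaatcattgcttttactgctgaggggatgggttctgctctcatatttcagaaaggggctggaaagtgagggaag
The Col1a2 window held 2 matches to CCAAT and 2 to GGGCGG and was 61% G and C. The Col3a1 window held 1 match to TATAAA, none to the other motifs, and was 37.7% G and C. The windows of Col4a1 and Col4a2 were 74% and 73.7% G and C, with 1 CCAAT match each and with 1 and 3 GGGCGG matches. Over all 32851 windows given for the genome 37.4% held CCAAT on either strand, 35.7% held GGGCGG and 13.6% held TATAAA, so a match in these windows is a description of the sequence and no more. Col4a5 and Col4a6 also start head to head, but 1343 bases apart, and their windows share no base.

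The deposited values are linear intensities, in 1 table of 42 arrays (12 h, 48 h and 15 d) and another of 9 arrays (6 d and 9 d), each tested on its own in limma on the log2 scale. The tables carry different platform labels but list the same 22626 probe set names. A call means an adjusted p under 0.05 over the whole table (Benjamini-Hochberg). Of the larger table, 56 member probe sets of 40 genes were bright enough to be tested and 24 were not, and from the smaller one 47 probe sets of 32 genes were tested and 33 were not. Untested in the larger table were all probe sets of Col2a1, Col4a4, Col8a1, Col10a1, Col11a1, Col26a1, Loxl1 and Pdgfrb. Array medians lay from 91.6 to 110.4. Among markers of the labelled tissue, Pbsn and Acta2 were bright on every array of the larger table. Pbsn, the probasin gene of prostate secretory cells, was at 1560 to 6710, and Acta2, the actin gene of smooth muscle, at 1480 to 4030. Other markers, such as Krt19, Epcam and Myh11, were each listed at 0 on 1 array. Some bright probe sets are listed at exactly 0 on single arrays, among them 34 member values in 17 tested probe sets of the larger table. Such a 0 took the floor of 16, so counts and values that zeros could set are also given with zeros left out as missing. The 15 d arrays fell into 2 sets on the main axis of a principal component analysis, which held 26.5% of the variance. Set A holds 2 RAD001, 2 transgenic placebo and all 3 wild type arrays, and set B holds 4 RAD001 and 5 transgenic placebo arrays. The labels do not name these sets.

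The first comparison asked how the transgene changed matrix RNA under placebo, with the 12 h, 48 h and 15 d differences averaged. Called matrix genes were more often lower than higher in transgenic glands: 23 of 56 tested member probe sets fell and 5 rose, of 16 and 5 genes. Over all 13574 probe sets tested, 18.4% fell and 15.1% rose, against 41.1% and 8.93% of the members. The median change of the members was -0.22 on the log2 scale, against -0.04 over all probe sets tested. With zeros left out 34 members were called (29 lower, 5 higher; all probe sets, either direction, 40.6%) and their median was -0.36. In such bulk tissue, fewer cells of a type and less RNA per cell cannot be told apart.

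**Figure D1:**
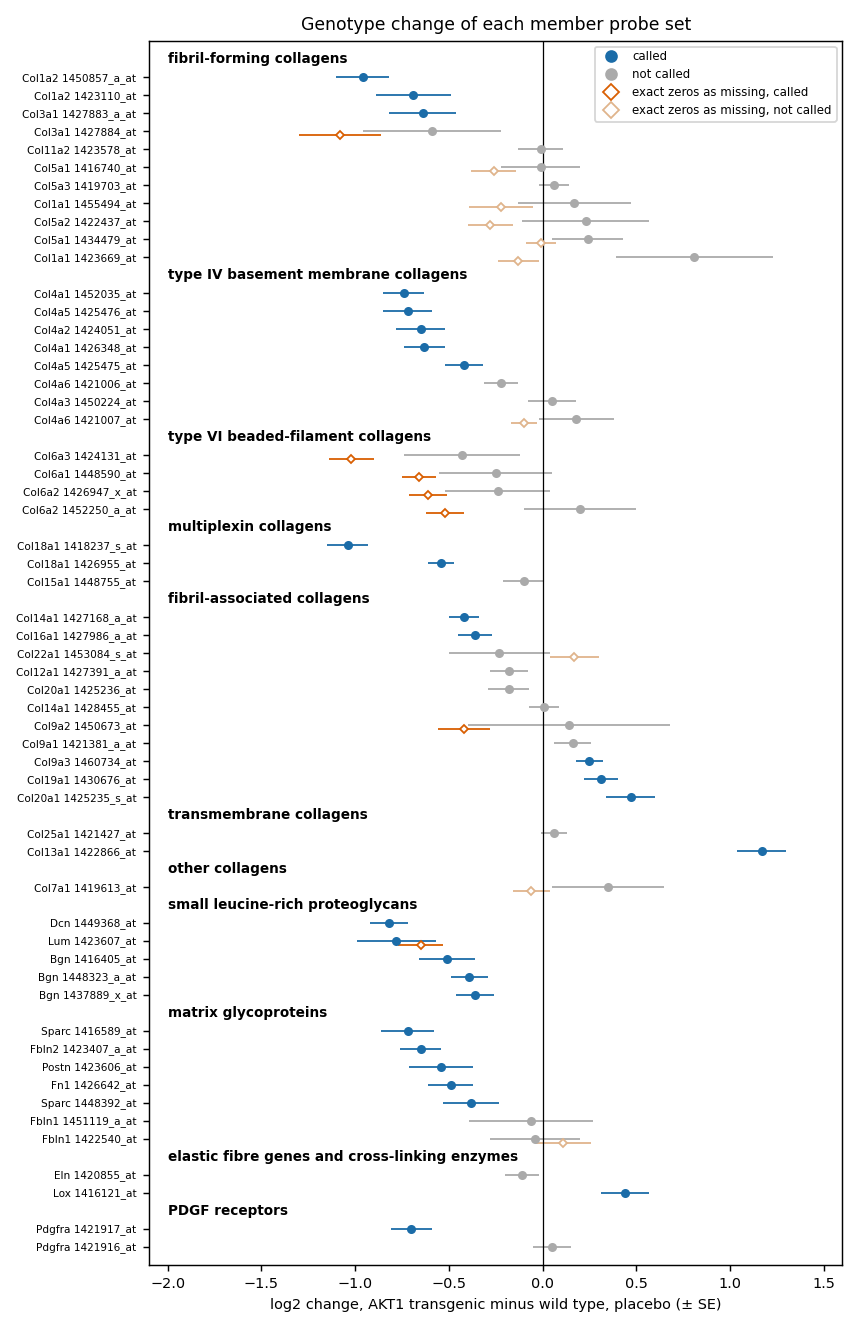
Change of each of the 56 tested probe sets between AKT1 transgenic and wild type glands under placebo (log2, horizontal axis, bars ± SE), grouped by role, with diamonds where leaving out exact zeros changes the value. All 5 proteoglycan probe sets and 5 of 8 type IV probe sets lie at or below -0.36, while Col13a1 lies at 1.17.

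The small leucine-rich proteoglycans bind collagen fibrils and set their spacing, and all 5 of their tested probe sets fell. Dcn, which encodes decorin, stood at 1790, 1640, 2540 and 2090 on the transgenic placebo arrays of 12 h, against 2680, 3950, 3200 and 3990 on the wild type arrays. At 48 h Dcn was at 1700, 1920, 1980, 2310 and 2120 in transgenic placebo glands, against 3280, 3270, 3420 and 2650 in wild type glands. At 15 d it was at 1100 to 2290 (median 1680) in transgenic placebo glands, against 3370, 3610 and 3260 in wild type glands. The groups did not overlap at any of these times, and Dcn fell by 0.82 ± 0.10 (SE), which is 1.76-fold lower (adjusted p = 1.19e-07). Lum, which encodes lumican, fell by 0.78 ± 0.21 (adjusted p = 0.00388). At 48 h Lum was at 60.6, 93.3, 84.2, 99.5 and 98.1 in transgenic placebo glands, against 191, 189, 227 and 179 in wild type glands, with no overlap. Lum is listed at 0 on 1 transgenic placebo array of 15 d, and it fell by 0.65 with that value left out. The 3 probe sets of Bgn, which encodes biglycan, fell by 0.51, 0.39 and 0.36, the most significant with an adjusted p of 0.00391.

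Of the fibril-forming collagens 3 of 11 tested probe sets fell and none rose, with a median of -0.01 (4 fell with zeros left out). Col1a2 stood at 713, 800, 794 and 991 on the transgenic placebo arrays of 12 h, against 880, 1330, 1270 and 1710 on the wild type arrays (brighter of its probe sets). At 48 h Col1a2 was at 624, 703, 703, 816 and 655 in transgenic placebo glands, against 1300, 1260, 1820 and 1770 in wild type glands. At 15 d it was at 269 to 578 (median 443) in transgenic placebo glands, against 1110, 1090 and 624 in wild type glands. The genotypes overlapped at 12 h alone, and Col1a2 fell by 0.96 ± 0.14, or 1.95-fold (adjusted p = 1.03e-06). Its second probe set fell by 0.69 ± 0.20 (adjusted p = 0.00666). Col3a1 was at 564, 809, 823, 931 and 719 in transgenic placebo glands of 48 h, against 1310, 1180, 2420 and 2060 in wild type glands, with no overlap. Over the 3 times Col3a1 fell by 0.64 ± 0.18 (adjusted p = 0.00634). Its dimmer probe set, listed at 0 on 3 arrays, changed by -0.59 (adjusted p = 0.23), or by -1.08 with zeros left out (adjusted p = 0.000173).

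Col1a1 encodes the partner chain of Col1a2 in type I collagen, and its genotype change turned on values listed at 0. At 48 h Col1a1 was at 289, 350, 304, 289 and 271 in transgenic placebo glands. The wild type arrays of 48 h listed it at 337 on replicate 1 and at 0 on the other 3. Because of those zeros the fitted genotype change was 0.81 ± 0.42 (adjusted p = 0.146), and it was -0.13 with zeros left out (adjusted p = 0.369). On the 5 arrays that list Col1a1 at 0, Col1a2 stood at 1660 (RAD001, 12 h), at 578 (transgenic placebo, 15 d) and at 1260, 1820 and 1770 (wild type, 48 h). The probe sets of Col5a1, Col5a2, Col5a3 and Col11a2 were not called.

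**Figure D2:**
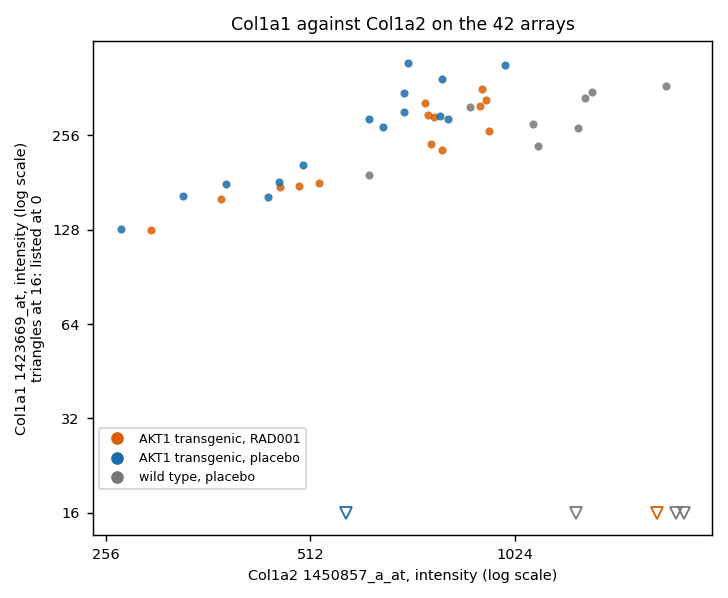
Intensity of Col1a1 (vertical) against Col1a2 (horizontal) on the 42 arrays of 12 h, 48 h and 15 d, both on log axes, coloured by group, with triangles at the floor of 16 for Col1a1 values listed at 0. The 5 triangles lie at Col1a2 intensities of 578 to 1820, 4 of them at 1260 or more.

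Type IV collagen is the main collagen of the basement membrane. Of its 8 tested probe sets 5 fell and none rose, with a median of -0.52. Col4a1 was at 349, 358, 356 and 429 on the transgenic placebo arrays of 12 h, against 533, 544, 572 and 815 on the wild type arrays (brighter probe set). At 48 h Col4a1 was at 269, 326, 309, 432 and 323 in transgenic placebo glands, against 684, 779, 906 and 835 in wild type glands. The genotypes did not overlap at these times, but they did at 15 d, with 268 to 413 (median 352) in transgenic placebo glands, against 359, 579 and 299 in wild type glands. In set A, which holds all wild type arrays of 15 d, the transgenic placebo arrays were at 268 and 276, below every wild type array. Col4a1 fell by 0.74 ± 0.11 (adjusted p = 2.22e-06), its other probe set by 0.63, and its head-to-head neighbour Col4a2 fell by 0.65 ± 0.13 (adjusted p = 0.000109). At 48 h Col4a2 was at 129, 103, 91.7, 123 and 106 in transgenic placebo glands, against 217, 301, 305 and 270 in wild type glands, with no overlap. Col4a5, a chain of the minor type IV networks, fell by 0.72 and 0.42 on its probe sets. Col4a3 and the 2 probe sets of Col4a6 were not called (0.05, -0.22 and 0.18).

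Col18a1, whose product is a heparan sulphate-bearing basement membrane collagen and the source of endostatin, had the smallest p of all members. It was at 173, 164, 138 and 190 on the transgenic placebo arrays of 12 h, against 198, 358, 421 and 473 on the wild type arrays (brighter probe set). At 48 h it was at 201, 190, 151, 220 and 185 in transgenic placebo glands, against 347, 417, 493 and 447 in wild type glands. At 15 d it was at 146 to 191 (median 167) in transgenic placebo glands, against 323, 278 and 352 in wild type glands. No transgenic placebo array reached the lowest wild type array of its time, and Col18a1 fell by 1.04 ± 0.11, or 2.06-fold (adjusted p = 1.34e-09). Its other probe set fell by 0.54 ± 0.07 (adjusted p = 1.93e-07). Col15a1, the related multiplexin, was at 140, 106, 83.8, 93.2 and 131 in transgenic placebo glands of 48 h, against 55.4, 120, 103 and 136 in wild type glands, which overlapped. Over the 3 times Col15a1 changed by -0.10 ± 0.11 (95% interval -0.31 to 0.11).

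**Figure D3:**
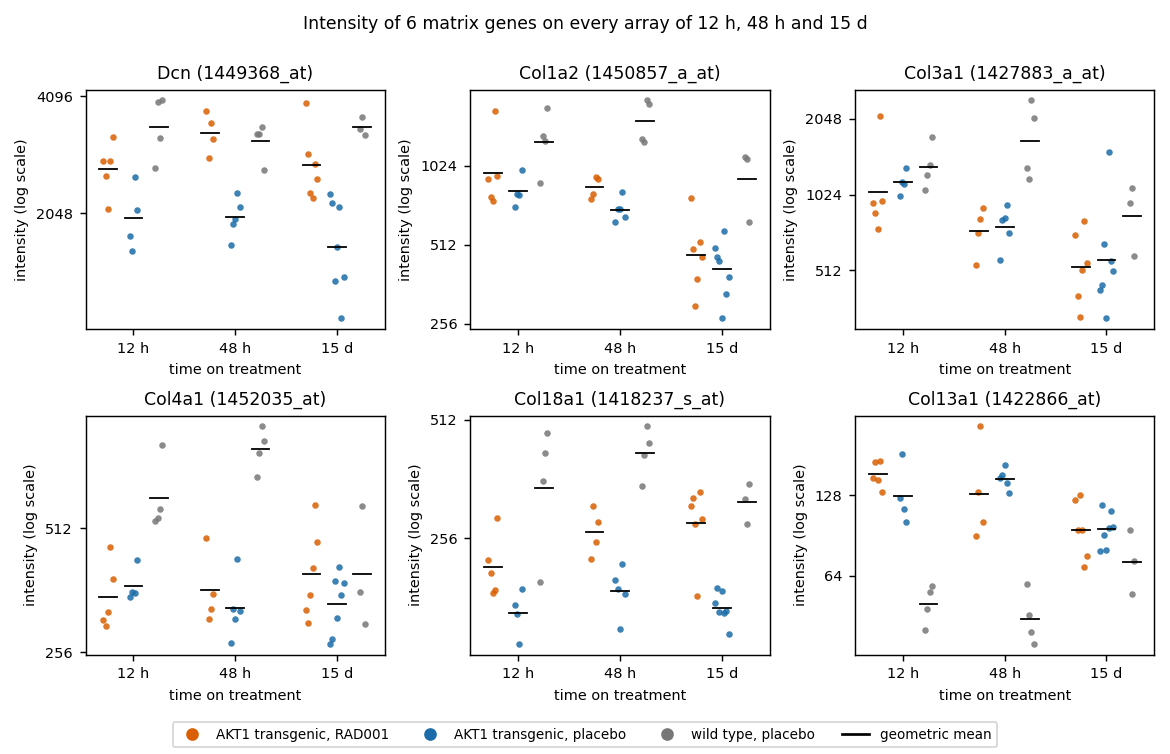
Intensity (log axis) of Dcn, Col1a2, Col3a1, Col4a1, Col18a1 and Col13a1 on every array of 12 h, 48 h and 15 d, for transgenic RAD001, transgenic placebo and wild type placebo glands, with bars at the geometric mean. Dcn and Col18a1 are lower in every transgenic placebo array than in any wild type array of the same time, and Col13a1 is higher at 12 h and 48 h.

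Type VI collagen forms beaded filaments around cells, and its 4 probe sets were called only when zeros were left out. Wild type replicate 1 of 12 h listed Col6a1 at 0, and the other wild type arrays of 12 h had 483, 410 and 532, against 286, 289, 320 and 338 in transgenic placebo glands. The fitted change of Col6a1 was -0.25 (adjusted p = 0.554), and -0.66 with the zero left out (adjusted p = 2.05e-07). Col6a3, at 0 on 1 wild type array of 15 d, changed by -0.43, or by -1.02 with zeros left out (adjusted p = 1.62e-08). The 2 probe sets of Col6a2 changed by -0.24 and 0.20, or by -0.61 and -0.52 with zeros left out, so the sign of the second one depends on its zeros.

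Matrix glycoproteins were also lower, with 5 of 7 tested probe sets fallen and none risen. Sparc, a collagen-binding glycoprotein, was at 1210, 1210, 1020, 1430 and 1240 in transgenic placebo glands of 48 h, against 1700, 1780, 3400 and 2590 in wild type glands (brighter probe set). These groups did not overlap, and Sparc fell by 0.72 ± 0.14 over the 3 times (adjusted p = 0.000167). Its second probe set fell by 0.38 (adjusted p = 0.0447), a call lost under 20 of 43 alternatives and with an adjusted p of 0.176 without wild type replicate 2 of 15 d. Fn1, which encodes the cell-binding glycoprotein fibronectin, was at 426, 376, 367, 461 and 314 in transgenic placebo glands of 48 h, against 708, 722, 633 and 549 in wild type glands. Fbln2, which encodes fibulin 2 of elastic fibres and basement membranes, was at 93.1, 97.7, 88.7, 124 and 85.5, against 237, 213, 201 and 199 in wild type glands. Neither gene's groups overlapped at 48 h, and over the 3 times Fn1 fell by 0.49 ± 0.12 (adjusted p = 0.0016) and Fbln2 fell by 0.65 ± 0.11 (adjusted p = 2.95e-05). Postn, the periostin gene, was at 142, 96, 83.8, 161 and 92.3 in transgenic placebo glands of 48 h, against 208, 261, 324 and 333 in wild type glands, again with no overlap, and fell by 0.54 ± 0.17. The 2 probe sets of Fbln1 were not called (-0.06 and -0.04).

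Among the remaining stromal genes Pdgfra, the PDGF receptor of fibroblasts, was at 72.8, 92.8, 95.9, 123 and 107 in transgenic placebo glands of 48 h, against 214, 252, 211 and 208 in wild type glands. At 15 d it was at 98.2 to 224 (median 157) in transgenic placebo glands, against 189, 238 and 133 in wild type glands. The genotypes were apart at 48 h and overlapped at 15 d. In set A, which holds all wild type arrays of 15 d, the transgenic placebo arrays were at 131 and 98.2, below every wild type array. Over the 3 times Pdgfra fell by 0.70 ± 0.11 (adjusted p = 8.22e-06), while its other, dimmer probe set changed by 0.05. Eln, the elastin gene, was at 240, 170, 260, 184 and 218 in transgenic placebo glands of 48 h, against 218, 192, 266 and 254 in wild type glands, which overlapped. Over the 3 times Eln changed by -0.11 ± 0.09 (95% interval -0.30 to 0.07).

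A few members went the other way. Col13a1, a transmembrane collagen of cell adhesion sites, was at 125, 183, 114 and 102 on the transgenic placebo arrays of 12 h, against 40.1, 47.8, 55.7 and 58.7 on the wild type arrays. At 48 h Col13a1 was at 148, 152, 166, 142 and 131 in transgenic placebo glands, against 59.8, 45.4, 39.4 and 35.5 in wild type glands. The genotypes were apart at both times and overlapped at 15 d. Col13a1 rose by 1.17 ± 0.13, or 2.24-fold (adjusted p = 4.35e-09). Lox, which encodes the collagen cross-linking enzyme lysyl oxidase, rose by 0.44 ± 0.13 (adjusted p = 0.00924). Among the fibril-associated collagens 3 probe sets also rose: Col20a1 by 0.47 (its other tested probe set changed by -0.18), Col19a1 by 0.31 and Col9a3 by 0.25. In the same class Col14a1 fell by 0.42 on 1 of its probe sets (0.01 on the other) and Col16a1 fell by 0.36. Without set B of 15 d the call of Col20a1 was lost (0.33, adjusted p = 0.0595), and the other members called in this comparison kept their calls.

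Taken time by time, 10 members were called at 12 h (9 lower), 24 at 48 h (20 lower) and 8 at 15 d (7 lower), where 21%, 25.6% and 21% of all probe sets were called. A moderated F-test asked whether the genotype change differed between the times, and called 13 of 56 members. That is 23.2%, close to the 21.3% of all probe sets called, so the members did not stand out in this test. Several of the 13 had their largest genotype difference at 48 h. Col4a2 changed by -1.31 there, Col4a1 by -1.28, Pdgfra by -1.19 and Postn by -1.31, and their F-tests gave adjusted p of 0.0156, 0.018, 0.0268 and 0.0454. Col13a1 differed by 1.35 at 12 h, 1.74 at 48 h and 0.40 at 15 d (F-test adjusted p = 0.00724), and Col4a5 by -1.17, -1.06 and 0.08 (adjusted p = 0.0112). Col1a1 was among the 13, through its zeros. The count depended on the 15 d arrays: 1 member was called without set B, which holds no wild type array. It was 6 without wild type replicate 3 of 15 d, 7 without replicate 1 of 15 d, and 8 without replicate 3 of 48 h.

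Genes that process collagen moved in both directions between the genotypes. Of 13 tested genes 4 fell and 3 rose (median -0.04). Crtap, a subunit of the prolyl 3-hydroxylase complex, fell by 0.60 ± 0.10, and Bmp1, the procollagen C-proteinase, fell by 0.32 ± 0.07. The lysyl hydroxylase gene Plod2 rose by 0.68 ± 0.08 and the prolyl 4-hydroxylase gene P4ha2 rose by 0.40 ± 0.09. Of 10 matrix proteases and inhibitors 3 fell and 1 rose: Timp3, an inhibitor bound to the matrix, fell by 0.77 ± 0.09, while Timp2 rose by 1.16 ± 0.12. In the TGF-beta list 3 of 16 genes rose and 2 fell. Smad7, an inhibitor of the pathway, rose by 1.39 ± 0.15, the receptor gene Tgfbr2 by 0.44 ± 0.08 and Tgfb1 by 0.39 ± 0.09, while Thbs1 fell by 0.47 ± 0.13. Of 11 matrix receptors 2 rose and 1 fell: Sdc1 rose by 0.57 and Sdc2 fell by 0.31, both of them syndecan genes.

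Markers of several cell types also differed between the genotypes, some lower and some higher, and their part in these results was not tested. Of 12 tested smooth muscle genes 9 fell and none rose (median -0.92), among them Tagln by 0.91 ± 0.09 and Acta2 by 0.72 ± 0.08. Their summed intensity was 6597 to 8817 in transgenic placebo glands, against 13230 to 16730 in wild type glands at 12 h. At 48 h it was 6197 to 8640 against 11070 to 15120, and at 15 d 5763 to 9429 against 12180 to 14560, in the same order of groups. Over the 56 member probe sets the sum at 12 h was 16330 to 18910 in transgenic placebo glands, against 18370 to 26560 in wild type glands. At 48 h the member sum was 14630 to 17570 in transgenic placebo glands, against 21490 to 25780 in wild type glands, and at 15 d it was 11010 to 16460 against 14870 to 19790. The member sums of the genotypes overlapped at 12 h and 15 d and did not at 48 h. The overlap at 12 h came from wild type replicate 1, at 18370 with 4 members listed at 0, the next being at 21140. At 15 d it came from transgenic placebo replicate 8 of set B, at 16460, the next of its group being at 13180. With zeros left out, the mean log2 deviation of the members at 12 h was -0.02 to 0.15 in transgenic placebo glands, against 0.15 to 0.43 in wild type glands. Other fibroblast genes fell in 5 of 11 cases (median -0.53), led by Ogn (-1.29) and Igf1 (-1.15). Luminal epithelial genes rose in 5 of 11 cases (median 0.42), basal epithelial genes fell in 4 of 7, and 1 of 10 macrophage genes fell. Of 12 listed endothelial genes only 2 were tested: Cdh5 rose by 0.94 and Kdr was not called. Of the fat cell genes, Adipoq and Lep had medians of 12.6 and 9.49, below the floor, while the 2 tested ones, Fabp4 and Retn, had medians of 122 and 160 and a median change of 0.02. The sum of Fabp4 and Retn stood apart on transgenic placebo replicate 9 of 15 d, at 718.7, against 204.5 to 369.3 on the other arrays of that group.

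**Figure D4:**
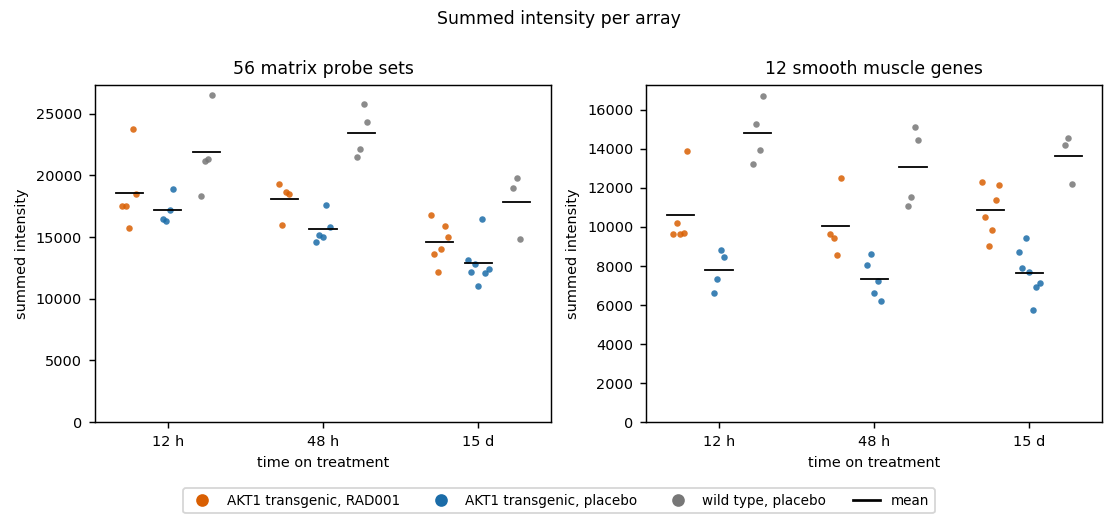
Summed intensity per array of the 56 matrix probe sets (left) and of 12 smooth muscle genes (right) at 12 h, 48 h and 15 d, for transgenic RAD001, transgenic placebo and wild type placebo glands, with bars at the mean. At 48 h the matrix sums of 14630 to 17570 in transgenic placebo glands lie below those of 21490 to 25780 in wild type glands, and RAD001-treated glands reach 15970 to 19320.

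The next comparisons asked which matrix genes RAD001 changed in transgenic glands. At 12 h limma called 0 of 56 members, and 3 had an unadjusted p under 0.05, where 0.626% of all probe sets rose and 0.84% fell. Those 3 were Dcn (0.42), Pdgfra (0.42) and Col18a1 (0.39), all higher under RAD001. The other probe sets of Pdgfra and Col18a1 changed by 0.07 and 0.18. Dcn was at 2790, 2550, 2100, 2790 and 3210 in RAD001-treated glands of 12 h, against 1790, 1640, 2540 and 2090 in transgenic placebo glands, which overlapped. The median change of the members was 0.06.

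At 48 h 1 member rose and 1 fell, where 1.97% of all probe sets rose and 1.47% fell. Dcn was at 3760, 2840, 3490 and 3170 in RAD001-treated glands, against 1700, 1920, 1980, 2310 and 2120 in transgenic placebo glands. Every RAD001-treated gland was above every placebo gland, and Dcn rose by 0.72 ± 0.18, or 1.65-fold (adjusted p = 0.0152). This call was at the threshold without RAD001 replicate 1 (0.66, adjusted p = 0.0502). Col19a1 fell by 0.53 ± 0.15 (adjusted p = 0.0329), a call lost without placebo replicate 4 or 5 or RAD001 replicate 5. With zeros left out 3 members were called (all probe sets, 5.15%), the third being a probe set of Bgn. It was at 1040, 636, 730 and 837 in RAD001-treated glands, against 476, 477, 398, 508 and 417 in transgenic placebo glands (0.81, adjusted p = 0.0553 in the main fit and 0.0363 with zeros left out). These groups did not overlap.

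At 15 d 5 members rose and 2 fell, where 2.42% of all probe sets rose and 3.1% fell. Col18a1 was at 183 to 336 (median 297) in RAD001-treated glands, against 146 to 191 (median 167) in transgenic placebo glands. Of 6 RAD001-treated glands 5 were above every placebo gland, and Col18a1 rose by 0.72 ± 0.15 (adjusted p = 0.00244) and by 0.45 ± 0.10 on its other probe set (adjusted p = 0.00503). Dcn was at 2240 to 3930 (median 2620) in RAD001-treated glands, against 1100 to 2290 (median 1680) in transgenic placebo glands, again with 5 of 6 above every placebo gland. Dcn rose by 0.70 ± 0.15, or 1.62-fold (adjusted p = 0.00281). Pdgfra was at 168 to 311 (median 243) in RAD001-treated glands, against 98.2 to 224 (median 157) in transgenic placebo glands (0.55 ± 0.16, adjusted p = 0.0307). This is its brighter probe set, and the dimmer one was not called. On 1 probe set Col20a1 fell by 0.65 ± 0.19 (adjusted p = 0.0317), with 49.7 to 82.4 in RAD001-treated glands, against 62.9 to 172 in transgenic placebo glands. Its other tested probe set was not called, at 48.4 to 76.6 against 36.6 to 80.6 in the same order.

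The remaining calls of 15 d rest on zeros. Col22a1 was at 103 to 142 in RAD001-treated glands, but 3 transgenic placebo arrays list it at 0, and its change of 1.30 was 0.11 with zeros left out (adjusted p = 0.809). Fbln1, on 1 of its 2 probe sets, was listed at 0 on all 4 RAD001 arrays of set B and at 243 and 224 on the RAD001 arrays of set A, against 72 to 169 in transgenic placebo glands. Its change was -1.62, and 0.96 with zeros left out (adjusted p = 0.0353), so its direction is not settled. With zeros left out 6 members were called (all probe sets, 6.93%), 5 higher and 1 lower.

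The sets of 15 d gave like sizes for Dcn, Col18a1 and Pdgfra, but not for Col20a1. In set A alone (2 arrays each) Dcn differed by 0.60 (adjusted p = 0.281), Col18a1 by 0.79 (0.277) and Pdgfra by 0.65 (0.317), and no member was called. In set B alone (4 RAD001 against 5 placebo arrays) Dcn differed by 0.71 (adjusted p = 0.00638), Col18a1 by 0.67 (0.0317) and Pdgfra by 0.55 (0.0189). Col20a1 differed by -0.22 in set A (adjusted p = 0.999) and by -0.82 in set B (0.0173). With the set as a block all 7 members were called. Without RAD001 replicate 6 or replicate 7 the count was 3. Dcn and both probe sets of Col18a1 kept their calls whichever array was left out. With only the RAD001 and transgenic placebo arrays of 15 d in the fit, the brighter Col18a1 probe set was the 1 member called (adjusted p = 0.0147), and Dcn (0.0859) and the other Col18a1 probe set (0.125) were not. The call of Pdgfra was lost without placebo replicate 1 or 2, or RAD001 replicate 3, 4, 6 or 7, and that of Col20a1 without placebo replicate 4, 8 or 9, or RAD001 replicate 1, 6 or 7.

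**Figure D5:**
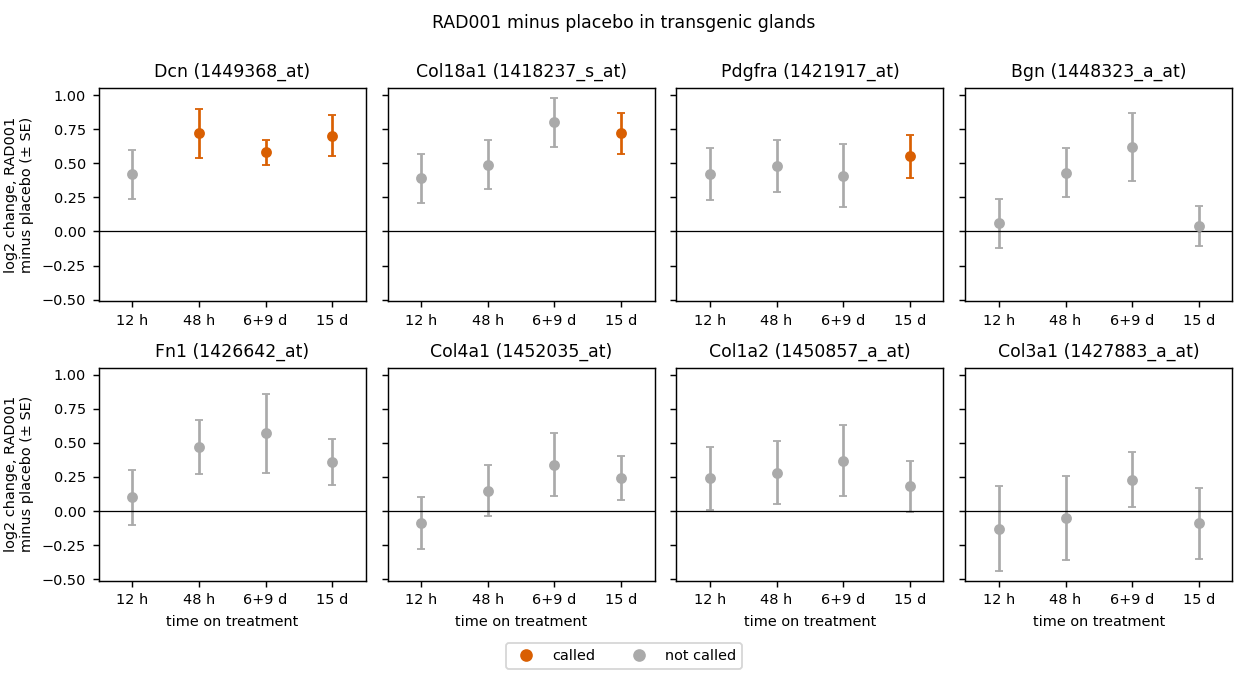
Change under RAD001 against placebo in transgenic glands (log2, vertical axis, bars ± SE) for 8 probe sets at 12 h, 48 h, 6 d and 9 d averaged, and 15 d, with called changes in orange. Dcn lies at 0.42, 0.72, 0.58 and 0.70, and Col3a1 stays between -0.13 and 0.23.

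The 6 d and 9 d arrays form a table of their own with 1 placebo array a day, so the days were averaged and the placebo arrays were assumed to vary as the RAD001 arrays do. Dcn was at 3190, 2820 and 3110 in RAD001-treated glands of 6 d, against 2020 in the placebo gland. At 9 d Dcn was at 2890, 3430, 3210 and 2970 in RAD001-treated glands, against 2090 in the placebo gland. All 7 RAD001-treated glands were above both placebo glands, and Dcn rose by 0.58 ± 0.09 (adjusted p = 0.0309), the 1 member called of 47. Over all probe sets of these arrays, 0.258% rose and 0.545% fell. The call was lost without RAD001 replicate 1 or 3 of 6 d, or replicate 1 or 4 of 9 d, and 2 members were called without replicate 3 of 9 d. Col18a1 was at 323, 228 and 214 in RAD001-treated glands of 6 d, against 163 in the placebo gland. At 9 d it was at 306, 291, 258 and 320, against 148. These do not overlap, but the changes of 0.80 ± 0.18 and, on the other probe set, 0.79 ± 0.15 were not called (adjusted p = 0.122 and 0.0769). With 1 placebo array a day such gaps were common among the 47 members. Every RAD001 array lay above the placebo array for 13 of them at 6 d and 28 at 9 d, and below it for 6 and 2. The share over all probe sets is not given here.

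Most collagens showed no call under RAD001 at any time. At 15 d Col1a2 was at 298 to 770 (median 478) in RAD001-treated glands, against 269 to 578 (median 443) in transgenic placebo glands (0.18 ± 0.19, 95% interval -0.20 to 0.56). Col3a1 differed by -0.09 ± 0.26 (interval -0.60 to 0.41), Col4a1 by 0.24 ± 0.16 (-0.06 to 0.55) and Sparc by -0.04 ± 0.20 (-0.43 to 0.36). Whether the RAD001 change differed between 12 h, 48 h and 15 d was tested with a moderated F-test in limma. It called 0 of 56 members, with 3 at an unadjusted p under 0.05 (all probe sets called, 0.398%).

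Among the other matrix genes Plod2 fell by 0.90 ± 0.13 at 48 h and by 0.60 ± 0.11 at 15 d, and P4ha2 fell by 0.49 ± 0.12 at 15 d. Timp3 rose by 0.56 ± 0.13 at 15 d. The 16 TGF-beta genes had medians of 0.12, -0.01 and 0.02 at 12 h, 48 h and 15 d, and the 11 matrix receptors had medians of 0.05, -0.09 and -0.04. Smooth muscle genes moved in the same direction as Dcn. Of 12 genes 1 rose at 12 h, 2 at 48 h and 4 at 15 d, with medians of 0.43, 0.51 and 0.37, among them Acta2 by 0.57 ± 0.11 and Flna by 0.90 ± 0.17 at 15 d. Their sum at 15 d was 9005 to 12310 in RAD001-treated glands, against 5763 to 9429 in transgenic placebo glands. Of 11 other fibroblast genes 2 rose at 48 h, Igf1 by 0.97 and Ogn by 0.83, and 0 rose at 12 h or 15 d. Their medians were 0.16, 0.19 and 0.16 at 12 h, 48 h and 15 d. Of 7 basal epithelial genes 2 rose at 48 h and 2 at 15 d, among them Trp63 by 0.61 and 0.47, with medians of 0.05, 0.26 and 0.21 over the 7 genes at 12 h, 48 h and 15 d. Of 11 luminal genes 1 fell at each of these times, Krt8 by 0.64 at 12 h and by 0.67 at 48 h and Spint1 by 0.39 at 15 d, with medians of 0.02, -0.26 and -0.04. Of 10 macrophage genes 1 rose at 15 d, C1qa by 1.10, and the median of the 10 was 0.01. The part of these markers in the changes of Dcn and Col18a1 was not tested.

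RAD001-treated transgenic glands were then set against wild type placebo glands. The wild type arrays are those of the genotype comparison, and the RAD001 arrays are those compared with transgenic placebo, so these comparisons share arrays. At 12 h 7 members were lower and 1 higher, where 7.41% of all probe sets were lower and 10.1% higher. At 48 h 11 were lower and 3 higher, where 6.59% were lower and 5.93% higher. Of those 3, 1 was a fibril-forming collagen probe set, and 0 of that class were higher with zeros left out. At 15 d 2 were lower and 0 higher, where 0.722% were lower and 0.928% higher. With zeros left out 12 members were called at 12 h and 23 at 48 h, where 22.9% and 17% of all probe sets were called in either direction. Without wild type replicate 2 of 12 h the count at that time was 5. The count at 48 h was 8 without wild type replicate 3 or RAD001 replicate 1, and 9 without RAD001 replicate 2.

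Of 8 type IV probe sets 4 were lower in RAD001-treated than in wild type glands at 12 h and 4 at 48 h, and of 3 multiplexin probe sets 2 were lower at 12 h and 1 at 48 h. Col4a1 was at 484, 309, 326 and 354 in RAD001-treated glands of 48 h, against 684, 779, 906 and 835 in wild type glands, with no overlap, and was 2.20-fold lower (log2 -1.14 ± 0.20, adjusted p = 0.000286). Col18a1 differed by -0.67 at 12 h and -0.67 at 48 h (adjusted p = 0.00763 and 0.016) and by -0.17 at 15 d (95% interval -0.54 to 0.20). Col13a1 was 3.06-fold higher at 12 h and 2.93-fold higher at 48 h. Dcn was not called at any time; at 15 d it differed by -0.33 ± 0.19 (interval -0.69 to 0.04). Cell type markers differed too. Of 12 smooth muscle genes 5 were lower at 12 h and 2 at 48 h (medians -0.50 and -0.36), of 11 other fibroblast genes 3 and 1 were lower (-0.28 and -0.42), and of 11 luminal genes 2 and 1 were higher (0.59 and 0.28). Of 7 basal genes 1 was lower and 1 higher at 12 h and 2 were lower at 48 h. Of the 2 tested endothelial genes Cdh5 was higher at both times (0.82 and 1.28), and Kdr was not called. At 15 d the medians were -0.39 for smooth muscle, -0.22 for other fibroblast and 0.11 for luminal genes. The part of these markers in the matrix differences was not tested.

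At 15 d the called members were Col1a2 and Sparc. Col1a2 was at 298 to 770 (median 478) in RAD001-treated glands, against 1110, 1090 and 624 in wild type glands (-0.96 ± 0.25, adjusted p = 0.0374). Sparc was at 316 to 767 (median 474) in RAD001-treated glands, against 1010, 1300 and 711 in wild type glands (-0.95 ± 0.26, adjusted p = 0.0457). The ranges overlapped in both genes: 5 of 6 RAD001-treated glands were below every wild type gland for Col1a2, and 4 of 6 for Sparc. No member was called at 15 d without set B, without wild type replicate 1 or 2, or without RAD001 replicate 3, 4 or 7.

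Matrix RNA was also compared between the times within a genotype, all mice being of the same stated age range. In transgenic placebo glands no member was called between 48 h and 12 h in limma (3 at an unadjusted p under 0.05), where 0% of all probe sets were called. Between 15 d and 12 h 14 members were lower and 3 higher (30.4% called), a smaller share than the 43.7% of all probe sets called. Sparc was at 303 to 839 (median 541) in transgenic placebo glands of 15 d, against 1210, 1420, 1280 and 1570 at 12 h, with no overlap, and was 2.63-fold lower (adjusted p = 1.41e-05). Col1a2 was 1.99-fold lower and Col3a1 2.03-fold lower, while Pdgfra rose by 0.78 ± 0.18 on its brighter probe set. That probe set was at 89.7, 85.5, 99.2 and 95.6 at 12 h. At 15 d it was at 131 and 98.2 in set A and at 145 to 224 in set B. The dimmer probe set of Pdgfra was at 37.4 to 95.9 at 15 d, against 97.8, 79.3, 84.9 and 81.4 at 12 h. Over the 3 times the F-test called 19 members in transgenic placebo glands (33.9%, against 47.9% of all probe sets), and 4 without set B.

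In wild type placebo glands the F-test over the 3 times called 14 members, and 8 without replicate 3 of 15 d. The 14 are 25% of the members, close to the 24.5% of all probe sets called. Between 15 d and 12 h 11 members were lower and 0 higher (19.6% called), where 21.4% of all probe sets were called. Sparc was at 1010, 1300 and 711 in wild type glands of 15 d, against 1630, 1590, 1560 and 2150 at 12 h, with no overlap, and was 1.75-fold lower (adjusted p = 0.0329). Col4a1 was 1.53-fold lower (adjusted p = 0.0366). Col6a3 was among the 11 through a zero (-1.70, or 0.07 with zeros left out). The labels name no batch, so time on placebo and any batch that goes with it cannot be told apart.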

How the data were processed

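Total RNA of mouse ventral prostate was hybridised as biotin-labelled cRNA, per the labels' protocols. The deposited values are linear intensities, 1 per probe set and array, in a table of 42 arrays and one of 9 arrays with 22626 probe sets each. The software and scaling behind these intensities are not given in the sources used here. Probe sets took gene symbols from the platform annotation (20380 had 1 symbol, 691 several and 1555 none), and the members and gene lists were chosen with earlier results of these data known. Any member could be named, and from the other lists up to 4 called genes per comparison.

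Intensities under 16 were set to 16 and log2 transformed, and probe sets whose mean lay at or above the 40th percentile were tested (13574 and 13576). A group-means model was fitted to each table in limma 3.58.1 (R 4.3.3), with eBayes trend and Benjamini-Hochberg adjustment at 0.05. From the larger one, 2 probe sets with values over 1e+05 were left out. All p-values are two-sided, and ± is the SE of the fit. The number of arrays limits the precision. Exact zeros in bright probe sets (3250 in the larger table, against 38 values between 0 and 16 there) led to an alternative with zeros as missing, added after seeing the data, as were those on the 15 d array sets and on arrays with over 500 zeros. The other alternatives concern the floor, filter, scaling, array weights, 1 probe set per gene, replicate numbers and single arrays left out. The fit was tested on simulated data.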

Additional observations from a re-analysis of the deposited data

Results flagged for a closer look

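Within groups of 4 to 7 arrays, 231 pairs of a member and a group were examined for 1 array far from the rest by Dixon's criterion, and 20 were found, where chance at 1 in 20 gives 12. In 4 of them the array that stood apart is listed at 0. Col1a1 was at 337 on wild type replicate 1 of 48 h, the other 3 arrays being listed at 0. It was at 0 on RAD001 replicate 4 of 12 h and on transgenic placebo replicate 8 of 15 d. Lum was also at 0 on transgenic placebo replicate 8 of 15 d, and Col6a1 was at 0 on wild type replicate 1 of 12 h.

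RAD001 replicate 4 of 12 h stood high for Col1a2 (1660, and 281 on the other probe set), Col3a1 (2100) and Postn (368), and wild type replicate 4 of 12 h for Col4a1 (815) and Sparc (2150). Col4a1 also stood apart at 429 on transgenic placebo replicate 4 of 12 h and at 411 on wild type replicate 1 of 48 h (the other probe set). Low arrays were RAD001 replicate 4 of 15 d for Col18a1 (183), RAD001 replicate 1 of 48 h for Col4a5 (82.8) and wild type replicate 1 of 12 h for Fbln1 (69.2). The others were Fbln1 at 176 on RAD001 replicate 1 of 12 h, Pdgfra at 252 and Col22a1 at 89.8 on wild type replicate 2 of 48 h, and Col1a1 at 361 on RAD001 replicate 3 of 9 d.

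The genotype change differed between 12 h, 48 h and 15 d in the limma F-test for Col13a1 (adjusted p = 0.00724), Col4a5 (0.0112), Col1a1 (0.0127), Col4a2 (0.0156), Col14a1 (0.0171), Col4a1 (0.018), Col22a1 (0.0208), Pdgfra (0.0268), Col11a2 (0.0363), Col4a6 (0.0367), Col25a1 (0.0409), Postn (0.0454) and Col1a2 (0.0468). These are 23.2% of the members, close to the 21.3% of all probe sets called. With zeros left out Col1a1 had an adjusted p of 0.0519.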

How the results depend on the processing

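Over 38 called member changes and their alternatives, 1332 of 1469 refits kept the direction and the call, 132 lost the call and 5 reversed. Where a value changed and no cause is named, the cause was not tested. The reversed values were Fbln1 under RAD001 at 15 d (0.96 with zeros as missing, 0.82 with these and the arrays with over 500 zeros left out, 0.81 in set A alone), Col19a1 between genotypes at 12 h alone (-0.01) and Col4a5 between genotypes at 15 d alone (0.08). Members called between genotypes numbered 28, or 18 with the 60th percentile filter, 10 at 12 h alone and 8 at 15 d alone. With that filter, which tests fewer probe sets, RAD001-treated against wild type glands gave 5 at 12 h and 8 at 48 h, the genotype-by-time test 7, and time within wild type and within transgenic placebo glands 9 and 10. With 1 probe set per gene RAD001 against wild type at 12 h gave 5. With array weights RAD001 against placebo gave 1 at 12 h, 4 at 48 h and 3 at 6 d and 9 d, its test across times 1, RAD001 against wild type 22 at 48 h and 5 at 15 d, and time within wild type 26. With zeros as missing RAD001 against wild type gave 23 at 48 h. With the arrays with over 500 zeros also left out it gave 25 at 48 h and 4 at 15 d, RAD001 against placebo 4 at 15 d and 3 at 6 d and 9 d, and time within wild type 23. Without set B RAD001 against placebo at 48 h gave 6, genotype by time 1, time within transgenic placebo 4 and RAD001 against wild type at 15 d 0. The 15 d RAD001 count was 0 in set A alone and 1 with the compared groups only. RAD001 against wild type at 15 d gave 1 with no filter and 0 with median scaling or the compared groups only. The 6 d and 9 d count was 2 with median scaling or without arrays with over 500 zeros, and 0 for either day alone.

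Replicate numbers do not pair the arrays: of 32 same-number pairs 3 correlated over 0.1 (range -0.25 to 0.51), and the best match had the same number in 9. With the replicate block 29 members were called between genotypes, 3 under RAD001 at 15 d, 0 at 6 d and 9 d, 3 for genotype by time, 12 for time within transgenic placebo and 0 for RAD001 against wild type at 15 d. Leaving out single arrays gave 27 to 30 members between genotypes, 6 to 16 for genotype by time, 0 under RAD001 at 12 h, 1 to 3 at 48 h, 3 to 7 at 15 d and 0 to 2 at 6 d and 9 d, and 0 for its test across times. For RAD001 against wild type it gave 5 to 9 at 12 h, 8 to 16 at 48 h and 0 to 3 at 15 d, and for time within wild type 8 to 18 and within transgenic placebo 17 to 22. Leaving out the lone placebo array of 6 d or 9 d could give no value. Signal over background limits the 24 and 33 probe sets that were not tested.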

Other observations

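Some members that were dim in one table were bright in the other, on the same probe set name. The tables carry different platform labels, and whether a name stands for the same probes in both was not given in the files used, so no levels were compared across tables. Over all 22626 names the medians (log2, floor of 16) correlated between the tables with r = 0.89, described across probe sets, and 4.36% of them, with 5 of the 80 members, differed by over 2. Col9a2 had a median intensity of 1130 over the 42 arrays and of 2.49 over the 9 arrays, and Col22a1 had 156 and 2.28. Col2a1 went the other way, with 5.06 over the 42 arrays and 161 over the 9 arrays, as did Lox on 1 of its 3 probe sets, with 16.8 and 187.

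Single arrays stood at the top or bottom of their group for many members at once. RAD001 replicate 4 of 12 h was the highest of its group for 27 of 55 tested members without a zero in the group, and wild type replicate 4 of 12 h for 29 of 51. Wild type replicate 3 of 15 d was the lowest of its group for 34 of 55. Other arrays did likewise, such as transgenic placebo replicate 4 of 48 h, the highest for 28 of 56. No share over all probe sets is given for these counts, so whether the arrays stood apart for matrix genes in particular was not tested.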
